A study of Mus musculus with 18 samples.

Results

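The genes described here are 34 members of the SREBP programme, the enzymes of sterol and fatty acid synthesis together with the factors that switch them on, measured in C2C12 myotubes exposed to the glucocorticoid dexamethasone and to ginsenoside Rc. They were chosen by symbol from a list drawn up with earlier results of these data known. All 34 were found among the 48795 gene identifiers of the count table, and all 34 were among the 15436 genes with enough counts to test. By role, 8 act between acetyl-CoA and squalene, 10 between squalene and cholesterol, 6 regulate the pathway or carry sterol, 5 supply or build fatty acids, and 5 elongate or desaturate them.

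Sterol regulatory element-binding proteins are transcription factors made as precursors in the membrane of the endoplasmic reticulum. When membrane sterol is low, the escort protein SCAP carries them to the Golgi, where proteases release the active fragment, while INSIG proteins hold SCAP back when sterol is high. SREBP2 acts mainly on cholesterol synthesis and SREBP1 mainly on fatty acid synthesis, and Insig1 and both SREBP genes are themselves targets, so the pathway feeds back on itself. Muscle fibres use the products for their extensive internal membranes and for phospholipids.

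C2C12 is a mouse myoblast line, whose cells were differentiated to myotubes for 5 days. Poly-A RNA was sequenced from 18 libraries in 6 groups of 3. Control myotubes received vehicle (0.1% DMSO) for 36 h, and a pair of groups were kept for the same 36 h with ginsenoside Rc, a triterpenoid saponin of ginseng (10 µM or 20 µM). The DEX group received vehicle for 12 h and then 200 µM dexamethasone for 24 h, and the DEX + Rc groups received 10 µM or 20 µM ginsenoside Rc for 12 h and then the same dexamethasone exposure. Whether ginsenoside Rc remained in the medium during dexamethasone is not known here. All libraries come from 1 cell line and carry the same batch label, and no label says whether replicates were separate cultures: the p-values therefore reflect how far these libraries differ, which may be technical only.

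Library totals ran from 32.4M to 45.4M counts (M for 1e6), and the lowest count of any member in any library was 353, for Tm7sf2. All 8 myotube markers had counts in every library, with a summed level of 20500 to 22600 CPM (counts per 1e6) over all groups. Fkbp5, a glucocorticoid receptor target, lay between 21.6 and 24.9 CPM in the 9 libraries without dexamethasone and between 412 and 447 CPM in the 9 with it. Replicate 2 of the 20 µM ginsenoside group stood apart: mitochondrially encoded genes took 2.79% of its counts, against 1.26% to 1.91% in the other 17 libraries, and ribosomal protein genes 1.78%, against 2.02% to 2.62%. Among the 9 libraries without dexamethasone it was highest for 10 members (29.4%, against 31.9% of all genes). It was lowest for 13 members (38.2%, against 33.1% of all genes). Nsdhl, Scd1, Sc5d and Fads2 were among those highest in it, and Stard4 and Acat2 among those lowest. All replicate pairs differed by more than sampling noise (chi-square over its degrees of freedom 5.24 to 89.2).

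The stretches before the transcription start are shown because the members move together in the results, and SREBPs and their partner NF-Y are known to act through such sequences. They come from RefSeq (GRCm38.p6), which gave a window of 250 bases before to 50 bases after the start for 27 of the 34 members. Printed are 5 members that rose with dexamethasone, from both stretches of the sterol pathway, the regulators and fatty acid synthesis, and Insig2, which did not pass. Each is written 5′ to 3′ on the strand of its gene, and capitals mark matches to the SRE-like motif, the NF-Y box or the E-box. Hmgcs1 is at chr13:119690101-119690350 (plus strand), Mvd at chr8:122443423-122443672 (minus), Nsdhl at chrX:72918271-72918520 (plus), Insig1 at chr5:28071162-28071362 (plus), Fasn at chr11:120824548-120824797 (minus) and Insig2 at chr1:121332590-121332839 (minus).
Hmgcs1: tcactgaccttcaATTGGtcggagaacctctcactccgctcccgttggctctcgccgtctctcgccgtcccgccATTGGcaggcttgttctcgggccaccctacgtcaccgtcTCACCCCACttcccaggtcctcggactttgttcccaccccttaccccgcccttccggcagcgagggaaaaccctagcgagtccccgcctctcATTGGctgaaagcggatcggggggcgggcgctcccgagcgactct
Mvd: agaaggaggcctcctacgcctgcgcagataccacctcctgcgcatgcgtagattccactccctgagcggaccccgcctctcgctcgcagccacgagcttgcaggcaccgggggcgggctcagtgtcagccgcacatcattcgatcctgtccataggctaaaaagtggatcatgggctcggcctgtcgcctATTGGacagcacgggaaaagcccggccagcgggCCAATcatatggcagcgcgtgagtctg
Nsdhl: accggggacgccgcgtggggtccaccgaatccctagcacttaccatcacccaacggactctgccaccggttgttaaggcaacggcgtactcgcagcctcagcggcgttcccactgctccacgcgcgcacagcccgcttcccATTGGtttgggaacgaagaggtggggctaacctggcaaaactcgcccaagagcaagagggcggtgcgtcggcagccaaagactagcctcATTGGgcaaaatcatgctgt
Insig1: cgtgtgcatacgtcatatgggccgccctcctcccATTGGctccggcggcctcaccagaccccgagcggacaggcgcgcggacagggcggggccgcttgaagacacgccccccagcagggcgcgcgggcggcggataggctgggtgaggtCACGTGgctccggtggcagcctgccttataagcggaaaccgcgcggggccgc
Fasn: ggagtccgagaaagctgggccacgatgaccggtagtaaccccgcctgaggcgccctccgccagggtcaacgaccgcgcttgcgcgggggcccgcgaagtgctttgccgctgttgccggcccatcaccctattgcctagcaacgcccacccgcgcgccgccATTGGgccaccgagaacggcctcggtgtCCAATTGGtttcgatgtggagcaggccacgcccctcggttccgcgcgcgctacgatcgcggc
Insig2: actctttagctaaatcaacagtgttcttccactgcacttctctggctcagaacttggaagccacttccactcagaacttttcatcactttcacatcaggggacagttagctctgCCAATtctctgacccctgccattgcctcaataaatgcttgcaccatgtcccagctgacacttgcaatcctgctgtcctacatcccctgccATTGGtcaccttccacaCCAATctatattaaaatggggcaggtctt

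The motifs, searched on both strands, were an SRE-like element (TCACNCCAC), the NF-Y box (CCAAT), the GC box of SP1 (GGGCGG), an E-box (CACGTG) and the full palindromic glucocorticoid response element. Among the members, matches to different motifs did not overlap; in Fasn the letters CCAATTGG hold a pair of overlapping NF-Y matches on opposite strands. An NF-Y box stood in 22 of the 27 members (81.5%), against 42.8% of the 11031 tested genes with a window, and in 63.9% of the members' 36 windows against 37.4% of all 32851. A GC box stood in 23 members (85.2%), against 66.5% of tested genes, and in 75% of the members' windows against 35.7% of all. The E-box stood in 5 members (Dhcr7, Hsd17b7, Insig1, Sc5d and Scap), 18.5% against 11.5% of tested genes, and in 16.7% of windows against 7.15%. Only Hmgcs1 held the strict SRE-like letters, at position -137 from the start, 3.7% of members against 1.41% of tested genes and 2.78% of windows against 1.24%. The glucocorticoid letters stood in 0 of 27 members, against 0.408% of tested genes and 0.475% of all windows. These are counts of letters in short windows, and the printed window of Insig2, its most upstream, holds NF-Y boxes as that of Hmgcs1 does. The other windows of Insig2 with a match held GC boxes and no NF-Y box.

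Without drugs the members covered a wide range of levels. Per kilobase of exon, Scd2 was highest in control myotubes at 413 ± 1.37 RPKM (SD, n = 3), followed by Scd1 at 181 ± 0.869, both stearoyl-CoA desaturases, which make monounsaturated fatty acids. Srebf2 (53.2 ± 0.621), Ebp (48.1 ± 3.21) and Hmgcs1 (46.5 ± 0.896 RPKM) came next, of which Ebp and Hmgcs1 lay within their spread of each other. At the bottom were Tm7sf2 (2.8 ± 0.245 RPKM) and Acss2 (2.72 ± 0.092), which also lay within their spread. The place of Acss2 depends on its annotated exon length of 10163 bases. By CPM, Acss2 (27.6) lay above Tm7sf2 (12.3), Pmvk (16) and Mvk (20) in controls. Per length, Srebf2 stood above Srebf1 (23.3 ± 0.144 RPKM), the gene of the factor tied to fatty acid synthesis, in control myotubes. Control libraries were close to each other: the median SD of log2 CPM over 3 controls was 0.044 for members and 0.072 for all genes.

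Dexamethasone raised most of the pathway. Against control, 28 of 34 members rose, 2 fell and 4 did not pass (edgeR quasi-likelihood test, adjusted p below 0.05), where 20.6% of all tested genes rose and 23.2% fell. The median log2 change of members was 0.68, against -0.01 for all genes. Libraries of the DEX and control groups did not overlap for 29 of 34 members, against 59.3% of all genes. Without a correction for library composition, 35% of called genes were higher instead of 47%, and the members' counts stayed within 1.5 times. In bulk RNA, a change in the share of a cell type and a change in RNA per cell cannot be told apart. Of 8 myotube markers 5 rose, 1 fell and 2 did not pass, with log2 changes of 0.77 for Ckm and -0.9 for Myh3. Of 6 dividing-cell markers all fell (summed level 195 to 198 CPM in controls, 20.8 to 34.8 CPM with dexamethasone). Of 6 fibroblast markers 5 fell and Pdgfra rose (6760 to 7300 CPM against 2680 to 3280 CPM). The part of these marker sets in the result was not tested. The 6 adipocyte markers had a summed level of 3.71 to 3.91 CPM in controls and 8.68 to 10.8 CPM with dexamethasone. Of these, Fabp4, a fatty acid carrier of adipocytes, rose from 0, 0.0221 and 0 CPM to 4.11, 3.15 and 3.77 CPM (adjusted p = 6.1e-12), and Pparg, the adipocyte transcription factor, rose by 0.71 on the log2 scale (adjusted p = 6.2e-05). Adipoq had too few counts to test, and Plin1, Cidec and Lep were at 0 in both groups; the part of these markers in the result was not tested. Of the 4 hepatocyte markers, Alb, Ttr and Fgb were at 0 in both groups.

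The enzymes that lead from acetyl-CoA to squalene all rose, 8 of 8, by 0.45 to 1.39 on the log2 scale (median 0.86). Idi1, which isomerises isopentenyl diphosphate into the starter unit of isoprenoid chains (ENSMUSG00000058258, chromosome 13, 8885501 to 8892451 in GRCm38), was at 102, 107 and 107 CPM in controls and at 378, 180 and 273 CPM with dexamethasone. All 3 treated libraries lay above the controls, and replicate 2 was the closest to them. The log2 change was 1.39 ± 0.20 (SE, adjusted p = 3.6e-05). Mvd, the decarboxylase that makes isopentenyl diphosphate (ENSMUSG00000006517, chromosome 8, 122433601 to 122443422), was at 29.1, 29.7 and 26.2 CPM in controls and at 97.2, 49.2 and 68.9 CPM with dexamethasone. Again the groups did not overlap and replicate 2 was lowest, with a log2 change of 1.34 ± 0.20 (adjusted p = 5.4e-05). Hmgcs1, the HMG-CoA synthase, changed by 1.07, and Fdft1, squalene synthase and the first enzyme committed to sterols, by 0.99. Mvk and Pmvk, the mevalonate kinases, changed by 0.70 and 0.45, Acat2, which joins acetyl-CoA units, by 0.74, and Fdps, which makes farnesyl diphosphate, by 0.69. Pmvk was the member of this stretch whose groups overlapped, since its replicate 2 with dexamethasone, 16.0 CPM, lay within the controls' 15.2 to 16.6 CPM.

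From squalene to cholesterol all 10 enzymes rose as well, by 0.42 to 1.40 (median 0.81). Tm7sf2, a sterol reductase acting after lanosterol demethylation (ENSMUSG00000024799, chromosome 19, 6062821 to 6068373), was at 13.4, 12.3 and 11.3 CPM in controls and at 43.6, 24.3 and 30.1 CPM with dexamethasone. Every treated library was above every control, and the change of 1.40 ± 0.20 (adjusted p = 3.4e-05) was the largest of the 34. Part of its exons overlap Vps51 on the same strand, so its counts are less certain. Hsd17b7, a sterol ketoreductase (ENSMUSG00000026675, chromosome 1, 169949535 to 169969241), was at 30.1, 29.2 and 28.6 CPM in controls and at 82.5, 47.2 and 58.9 CPM with dexamethasone. Its groups were again apart, with replicate 2 lowest, and it changed by 1.10 ± 0.16 (adjusted p = 3.4e-05). Cyp51, the lanosterol demethylase, changed by 1.03 and Msmo1, the methylsterol oxidase that follows it, by 1.02. Nsdhl, which removes the methyl carbons, changed by 0.94, Sqle, the squalene epoxidase that controls entry to this stretch, by 0.68, and Lss, which closes the ring to lanosterol, by 0.67. The late steps moved least: 0.55 for the desaturase Sc5d, 0.48 for the isomerase Ebp and 0.42 for the final reductase Dhcr7.

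**Figure D1:**
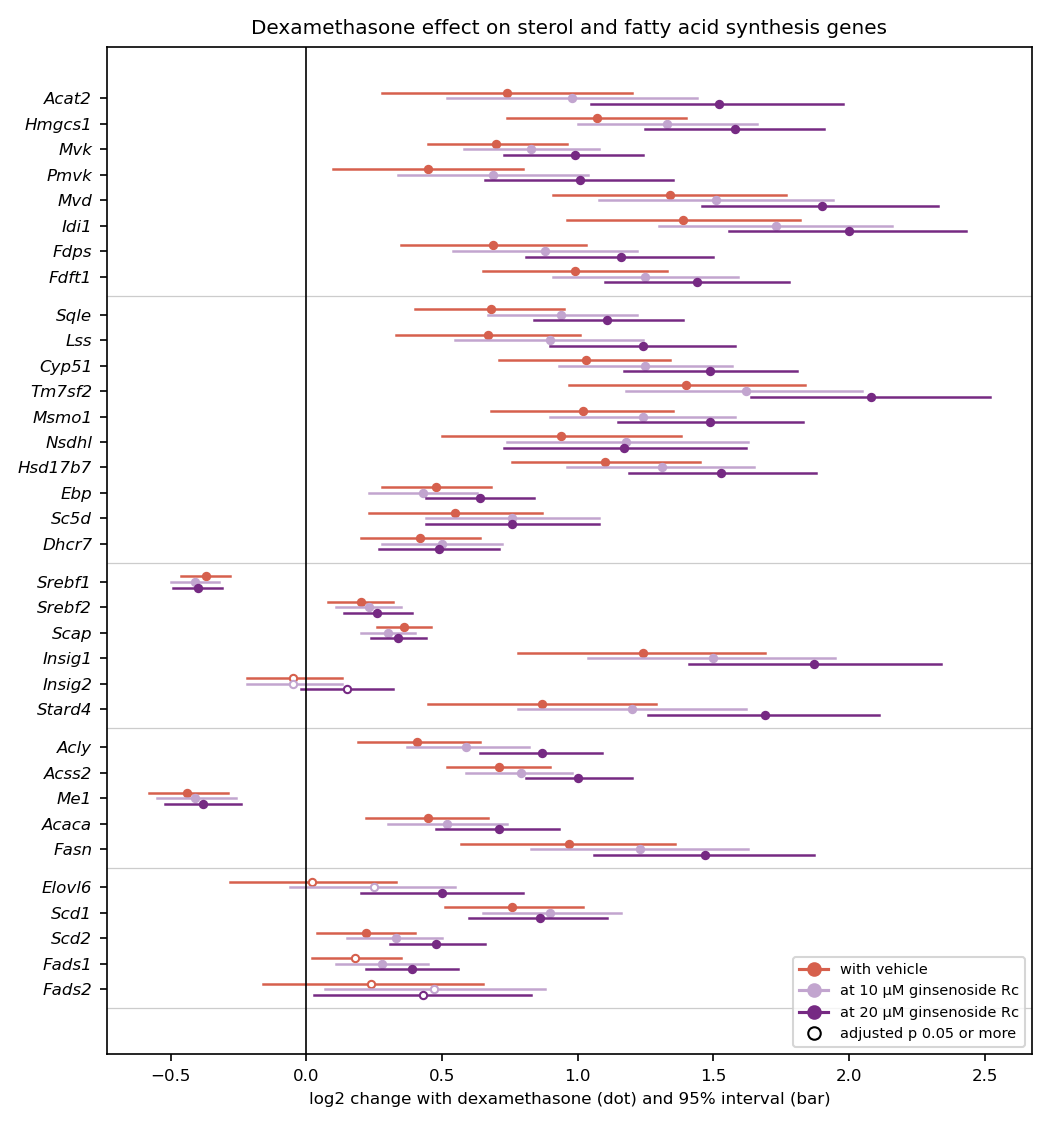
Log2 change with dexamethasone (x axis, dot, with its 95% interval) for each of the 34 genes (y axis, grouped by role) with vehicle, at 10 µM and at 20 µM ginsenoside Rc; open dots did not pass. Nearly all sterol enzymes lie right of 0, while Srebf1 and Me1 lie left of it in all 3 comparisons.

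The regulators did not move as a block. Insig1, the feedback protein that retains SCAP (ENSMUSG00000045294, chromosome 5, 28071363 to 28078662), was at 80.5, 85.1 and 80.9 CPM in controls and at 266, 141 and 174 CPM with dexamethasone. Treated libraries were all above controls, and the log2 change was 1.24 ± 0.21 (adjusted p = 0.00022). Its relative Insig2 (ENSMUSG00000003721, chromosome 1, 121304353 to 121332589) was at 76.9, 75.8 and 74.5 CPM in controls and at 74.8, 73.9 and 71.2 CPM with dexamethasone. These values overlap, and the change of -0.05 ± 0.08 did not pass (95% interval -0.22 to 0.13, adjusted p = 0.69). Stard4, which carries sterol between membranes (ENSMUSG00000024378), was at 30.3, 33.5 and 31.9 CPM in controls and at 75.8, 44.6 and 55.1 CPM with dexamethasone, again without overlap, a change of 0.87 ± 0.20 (adjusted p = 0.0019).

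The SREBP genes themselves went opposite ways. Srebf1 (ENSMUSG00000020538, chromosome 11, 60199089 to 60222581) was at 130, 132 and 132 CPM in controls and at 103, 100 and 101 CPM with dexamethasone. Its groups did not overlap, its treated replicate 1 was 1.03 times replicate 2, and it fell by 0.37 ± 0.04 (adjusted p = 1.7e-06). Gene counts do not separate its SREBP1a and SREBP1c transcripts. Srebf2 rose by 0.20 ± 0.06 (adjusted p = 0.0092) and Scap, the escort protein, by 0.36 ± 0.05 (adjusted p = 5.5e-06). So the transcripts of SREBP2 and SCAP were 1.15-fold and 1.29-fold of control, while those of Idi1, Mvd and Tm7sf2 were 2.62-fold, 2.53-fold and 2.65-fold.

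Among the genes of fatty acid supply and synthesis, 4 rose and 1 fell. Fasn, the fatty acid synthase (ENSMUSG00000025153, chromosome 11, 120805846 to 120824547), was at 206, 202 and 189 CPM in controls and at 494, 299 and 374 CPM with dexamethasone. The groups were apart and replicate 2 was lowest, with a log2 change of 0.97 ± 0.19 (adjusted p = 0.00053). Acss2, which makes acetyl-CoA from acetate (ENSMUSG00000027605, chromosome 2, 155517948 to 155585724), was at 27.3, 28.6 and 26.8 CPM in controls and at 47.3, 41.0 and 47.1 CPM with dexamethasone. It showed little of the replicate spread seen for Fasn, and changed by 0.71 ± 0.09 (adjusted p = 4.5e-06). Acaca, acetyl-CoA carboxylase, changed by 0.45 and Acly, ATP citrate lyase, by 0.41. Me1, the malic enzyme that supplies NADPH (ENSMUSG00000032418, chromosome 9, 86581371 to 86695953), was at 67.0, 68.9 and 77.0 CPM in controls and at 52.8, 51.3 and 53.1 CPM with dexamethasone. All its treated libraries lay below the controls, and it fell by 0.44 ± 0.07 (adjusted p = 3.4e-05).

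Of the 5 genes of elongation and desaturation, 2 rose and 3 did not pass. Scd1 (ENSMUSG00000037071, chromosome 19, 44394455 to 44407879) was at 885, 886 and 878 CPM in controls and at 1730, 1280 and 1480 CPM with dexamethasone, without overlap, a log2 change of 0.76 ± 0.12 (adjusted p = 5.1e-05). Its close paralog Scd2 changed by 0.22 ± 0.08 (adjusted p = 0.043), and reads shared by the pair were divided by estimation. Elovl6, which elongates palmitate, was at 26.8, 25.6 and 27.7 CPM in controls and at 32.8, 21.8 and 26.8 CPM with dexamethasone. Its treated libraries lay on both sides of the controls, and the change was 0.02 ± 0.14 (95% interval -0.28 to 0.33). Fads1, a desaturase of polyunsaturated fatty acids, was at 102, 100 and 106 CPM in controls and at 133, 103 and 115 CPM with dexamethasone, a change of 0.18 ± 0.08 (adjusted p = 0.073). Fads2, which acts before it in the same chain, was at 66.5, 63.4 and 70.6 CPM in controls and at 103, 58.2 and 76.6 CPM with dexamethasone, a change of 0.24 ± 0.19 (adjusted p = 0.33). For both, replicate 2 with dexamethasone lay within or under the range of the controls.

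**Figure D2:**
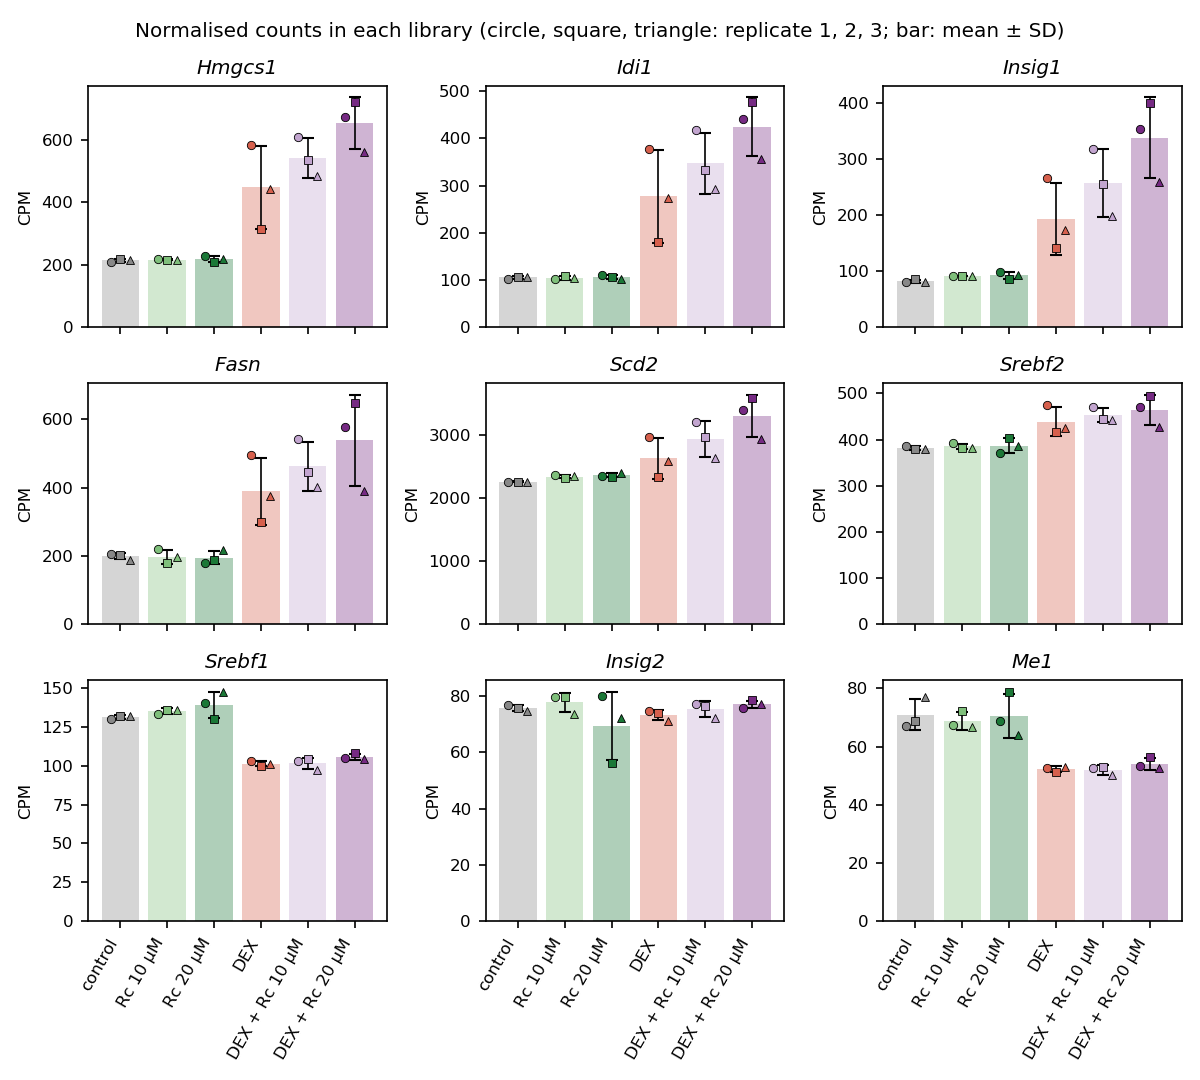
CPM (y axis, from 0) in each library of the 6 groups (x axis) for selected members, with the mean and SD of 3 libraries as bar and error bar and symbols for replicates 1, 2 and 3. Idi1 in the DEX group runs from 180 to 378 CPM, while Srebf1 stays between 100 and 103 CPM.

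The size of the rise depended on single libraries. Without DEX replicate 1, 24 members rose and the median change was 0.46; Acat2 (adjusted p = 0.068), Pmvk (0.26), Srebf2 (0.073) and Scd2 (0.27) no longer passed. Without DEX replicate 2, 29 rose and the median was 0.83, with Fads1 passing (adjusted p = 0.012). Of all genes, 2731 of 15624 rose without replicate 1 and 2886 of 15628 without replicate 2, against 3177 of 15436 with all libraries. Elovl6 was at -0.14 without replicate 1 and at 0.16 without replicate 2, and passed in neither case.

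At each ginsenoside dose the response to dexamethasone was measured again in libraries that share none with DEX and control. At 10 µM, 29 members rose, 2 fell and 3 did not pass, with a median of 0.86, where 21.1% of all genes rose and 23% fell (35.9% of called genes higher without composition scaling, 47.9% with it). At 20 µM, 30 rose, 2 fell and 2 did not pass, with a median of 1.01, where 23.5% of all genes rose and 25.4% fell. In both, all 18 enzymes from acetyl-CoA to cholesterol rose, and Srebf1 (-0.41 and -0.40) and Me1 (-0.41 and -0.38) fell. Idi1 changed by 1.73 and 2.00, Tm7sf2 by 1.62 and 2.08, Insig1 by 1.5 and 1.87 and Fasn by 1.23 and 1.47 at 10 and 20 µM.

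Insig2 did not pass in either, at -0.05 ± 0.08 and 0.15 ± 0.08. Its levels were 79.8, 79.7 and 73.7 CPM at 10 µM and 77.3, 76.4 and 72.0 CPM with dexamethasone added, and 79.9, 56.1 and 72.2 CPM at 20 µM and 75.8, 78.4 and 77.0 CPM with dexamethasone added. The low value is that of the library that stood apart, and without it the change at 20 µM was 0.02. Fads2 was at 57.4, 66.1 and 65.2 CPM at 10 µM and at 99.5, 80.5 and 82.4 CPM with dexamethasone, which do not overlap, but missed the threshold (0.47 ± 0.19, adjusted p = 0.055 from edgeR, and 0.049 from DESeq2). At 20 µM it was at 67.2, 103 and 64.5 CPM and, with dexamethasone, at 109, 114 and 92.7 CPM, a change of 0.43 ± 0.19 (adjusted p = 0.074), or 0.68, past the threshold, without the library that stood apart. Elovl6 at 10 µM went from 25.8, 25.9 and 27.4 CPM to 37.2, 29.2 and 27.5 CPM, and did not pass (adjusted p = 0.18). At 20 µM it was at 27.0, 29.8 and 28.1 CPM without dexamethasone and at 41.9, 46.3 and 31.6 CPM with it, and rose by 0.50 ± 0.14 (adjusted p = 0.0074).

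Over all 18 libraries, the 9 with dexamethasone lay above the 9 without it for 23 members, against 15.2% of all genes, and below them for Srebf1 and Me1, against 17.5%. The 9 members in neither set were Pmvk, Nsdhl, Sc5d, Dhcr7, Insig2, Elovl6, Scd2, Fads1 and Fads2.

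With ginsenoside Rc alone no member passed the test against control. At 10 µM, 0 of 34 passed by edgeR, against 0.00648% of all genes, and DESeq2 called 0, against 0.0324%. An unadjusted p under 0.05 was reached by 0, against 2.54% of all genes. The median change was 0, and members ran from -0.09 to 0.15. The smallest unadjusted p was that of Scap, at 73.8, 70.3 and 72.7 CPM in controls and 75.4, 73.7 and 77.2 CPM at 10 µM, overlapping values with a change of 0.06 ± 0.05 (adjusted p = 1 from edgeR). At 20 µM, 0 of 34 passed by edgeR, against 0.104% of all genes, and DESeq2 called 0, against 0.693%. An unadjusted p under 0.05 was reached by 0, against 9.29% of all genes. The median was 0.01, with members from -0.19 to 0.24. Srebf1 had the smallest p, at 140, 130 and 147 CPM against 130, 132 and 132 CPM in controls, overlapping values with a change of 0.08 ± 0.04 (95% interval -0.01 to 0.18, adjusted p = 0.57). The 95% intervals of all members lay between -0.52 and 0.60 at 10 µM and between -0.60 and 0.68 at 20 µM. The fit gives each gene 1 spread for all groups, so these intervals carry the spread of the dexamethasone libraries. For Idi1 the SE was 0.20 at 10 µM against control and also 0.20 for DEX against control. Its SD of log2 CPM was 0.04 in controls, 0.05 at 10 µM and 0.54 in DEX.

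With dexamethasone present, the members lay higher at 20 µM ginsenoside Rc than with vehicle, but the difference did not pass. At 20 µM, 0 of 34 passed by edgeR, where 0.369% of all genes did; the smallest adjusted p was 0.11. All 34 log2 changes were above 0, against 50.3% of all genes, with a median of 0.41 and a range from 0.05 to 0.81. An unadjusted p under 0.05 was reached by 28 members, against 8.75% of all genes, and DESeq2 called 7, against 0.57% of all genes higher (Hmgcs1, Sqle, Insig1, Stard4, Acly, Elovl6 and Scd2). Members vary together from library to library, so these counts do not stand for 34 separate observations. Both edgeR and DESeq2 gave each gene 1 spread over all groups, which includes the quieter libraries without dexamethasone. The median SD of log2 CPM of members was 0.357 in DEX and 0.157 in DEX + Rc 20 µM, against 0.044 in controls. The p-values of this comparison may therefore be too small for members that vary most under dexamethasone. Groups did not overlap for 4 members (Mvk, Srebf1, Insig2 and Acss2), against 14.9% of all genes.

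Scd2 had the smallest p. It was at 2970, 2330 and 2580 CPM in DEX libraries and at 3400, 3580 and 2930 CPM with 20 µM ginsenoside Rc added. The groups overlapped, since DEX replicate 1 was above replicate 3 of the combined group, and the change was 0.33 ± 0.08 (unadjusted p = 0.0011, adjusted p = 0.11 from edgeR). The largest difference was that of Insig1, at 266, 141 and 174 CPM with dexamethasone alone and 355, 401 and 260 CPM with ginsenoside added, 0.81 ± 0.21 (adjusted p = 0.12). By role, the median was 0.49 for the enzymes up to squalene, 0.46 from squalene to cholesterol, 0.08 for regulators and carrier, 0.29 for fatty acid supply and synthesis and 0.33 for elongation and desaturation. Srebf2 (0.08), Scap (0.05) and Srebf1 (0.05) were among the smallest, each with a 95% interval from -0.05 or above to at most 0.20.

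The count in this comparison rested on which libraries were used. Without DEX replicate 1, 17 members passed, against 0.275% of all genes higher, and the median was 0.63, and without DEX replicate 2, 0 passed and it was 0.25. Without replicate 3 of the combined group 5 passed, against 0.55%, and leaving out any other library of the 2 groups gave 0. Without the 20 µM library that stood apart, which is in neither group but enters the shared spread, filter and scaling, 1 passed, as without the filter on low counts. Over all 15618 genes of the fit without that library 119 were called higher and 222 lower, against 18 and 39 of 15436 with all libraries. Without the filter these were 34 and 61 of 26796.

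**Figure D3:**
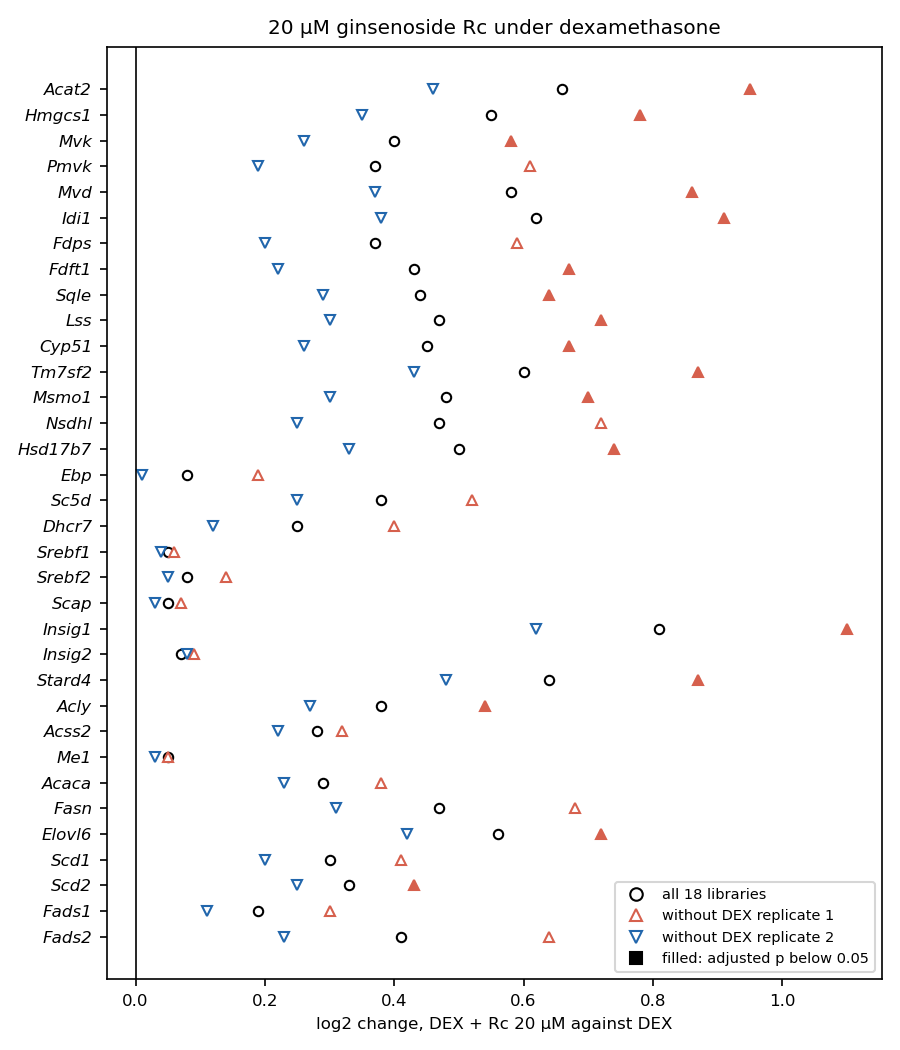
Log2 change of each member (y axis) between DEX + Rc 20 µM and DEX (x axis), from all libraries and without DEX replicate 1 or replicate 2; filled symbols have an adjusted p below 0.05. The median is 0.41 from all libraries, 0.63 without replicate 1 and 0.25 without replicate 2.

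At 10 µM under dexamethasone, 0 of 34 passed by edgeR, against 0.0259% of all genes, and DESeq2 called 0, against 0.11%. An unadjusted p under 0.05 was reached by 0, against 3.85% of all genes. The median was 0.17 and 30 members were above 0, against 50.2% of all genes. Insig1 had the smallest p, at 319, 256 and 198 CPM against 266, 141 and 174 CPM with dexamethasone alone. Those values overlap, and the change was 0.41 ± 0.21 (95% interval -0.04 to 0.86, adjusted p = 1 from edgeR). The median of the members was 0.04 without DEX replicate 2, 0.08 without replicate 1 of the combined group and 0.38 without DEX replicate 1. This comparison, the one at 20 µM and DEX against control share the 3 DEX libraries.

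Whether the dexamethasone response itself differed with ginsenoside Rc was tested by the interaction. At 20 µM, 0 of 34 passed by edgeR, against 0% of all genes, and DESeq2 called 0, against 0.00648%. An unadjusted p under 0.05 was reached by 15, against 5.29% of all genes. The median difference in response was 0.43, with 32 members above 0 against 50.8% of all genes. Acly had the smallest p: it was at 166, 165 and 161 CPM in controls, 162, 143 and 162 CPM at 20 µM, 263, 184 and 208 CPM with dexamethasone and 295, 307 and 250 CPM with both. Without dexamethasone the 20 µM libraries lay within or under the controls' range, with it 1 of the 3 lay within the range of the DEX libraries, and the interaction was 0.45 ± 0.15 (adjusted p = 0.88). At 10 µM, 0 of 34 passed by edgeR, against 0% of all genes, and DESeq2 called 0, also against 0%. An unadjusted p under 0.05 was reached by 0, against 2.12% of all genes. The median of the members was 0.21. Sqle had the smallest p, at 127, 131 and 126 CPM in controls, 123, 131 and 121 CPM at 10 µM, 257, 158 and 198 CPM with dexamethasone and 274, 239 and 208 CPM with both, an interaction of 0.27 ± 0.18 (95% interval -0.12 to 0.66). Leaving out DEX replicate 1 or 2 moved the median interaction to 0.62 or 0.25 at 20 µM and to 0.43 or 0.04 at 10 µM.

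The 9 dexamethasone libraries differed in the level of these genes far more than in most others. The mean log2 CPM of the 34 genes was 6.37, 6.37 and 6.34 in controls, 6.36, 6.39 and 6.35 at 10 µM and 6.40, 6.35 and 6.37 at 20 µM. In the DEX group it was 7.28, 6.67 and 6.96, in DEX + Rc 10 µM 7.34, 7.13 and 7.01, and in DEX + Rc 20 µM 7.42, 7.5 and 7.19. All dexamethasone libraries lay above all others, and DEX replicate 1 lay above replicates 2 and 3 of the 10 µM combination and replicate 3 of the 20 µM combination. The group means were 6.97 ± 0.30, 7.16 ± 0.17 and 7.37 ± 0.16 (SD, n = 3) with dexamethasone, against 6.36 ± 0.02 in controls.

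**Figure D4:**
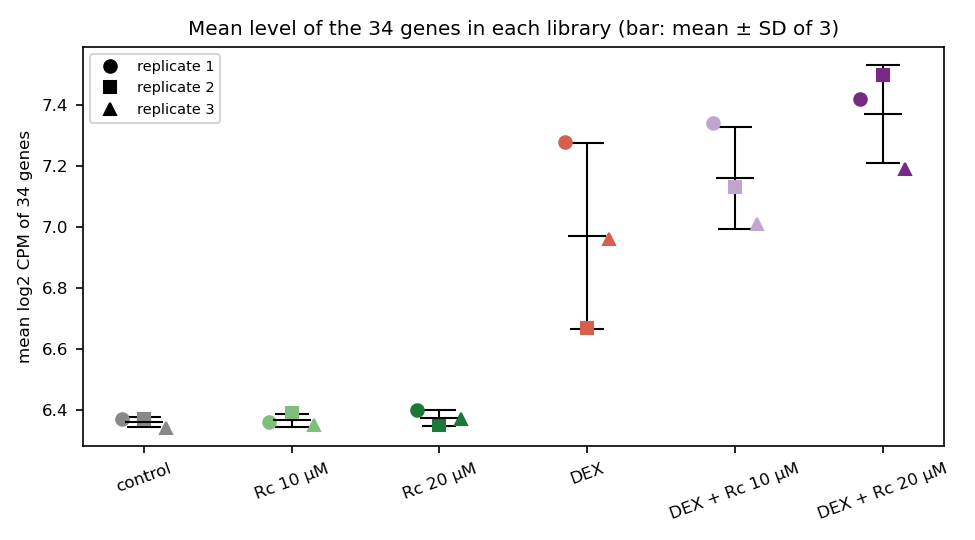
Mean log2 CPM of the 34 genes (y axis) in each library of the 6 groups (x axis), with the mean and SD of 3 libraries and symbols for replicates. The 9 libraries without dexamethasone lie between 6.34 and 6.40, and the 9 with it between 6.67 and 7.5.

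The spread was shared by most members. Within the DEX group replicate 1 was highest for 33 of 34 members, against 33.3% of all genes, and replicate 2 was lowest for 33, against 35.8%. Among all 9 dexamethasone libraries, DEX replicate 2 was lowest for 31 members, against 14.1% of all genes, and replicate 2 of DEX + Rc 20 µM was highest for 30, also against 14.1%. The median SD of log2 CPM within DEX was 0.357 for members and 0.077 for all genes. In the combined groups it was 0.168 and 0.157 for members, against 0.077 and 0.088. Over the 9 dexamethasone libraries the highest value was 1.90 times the lowest for the median member and 1.21 times for the median gene; over the 9 libraries without dexamethasone these ratios were 1.22 and 1.35.

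How far a member took part in this spread differed by gene. Insig1 ran from 141 to 401 CPM over the 9 dexamethasone libraries (highest over lowest 2.84), Idi1 from 180 to 477 (2.66), Acat2 from 49.6 to 129 (2.61) and Tm7sf2 from 24.3 to 58.1 (2.39). Elovl6, which did not pass against control, ran from 21.8 to 46.3 CPM (2.13), and Fads2 from 58.2 to 114 (1.95). Srebf1 (97.4 to 108 CPM) and Insig2 (71.2 to 78.4 CPM) each spanned 1.10-fold, Scap and Me1 1.12-fold and Srebf2 1.18-fold. These 5 had the smallest ratios of the 34, followed by Ebp (1.26).

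**Figure D5:**
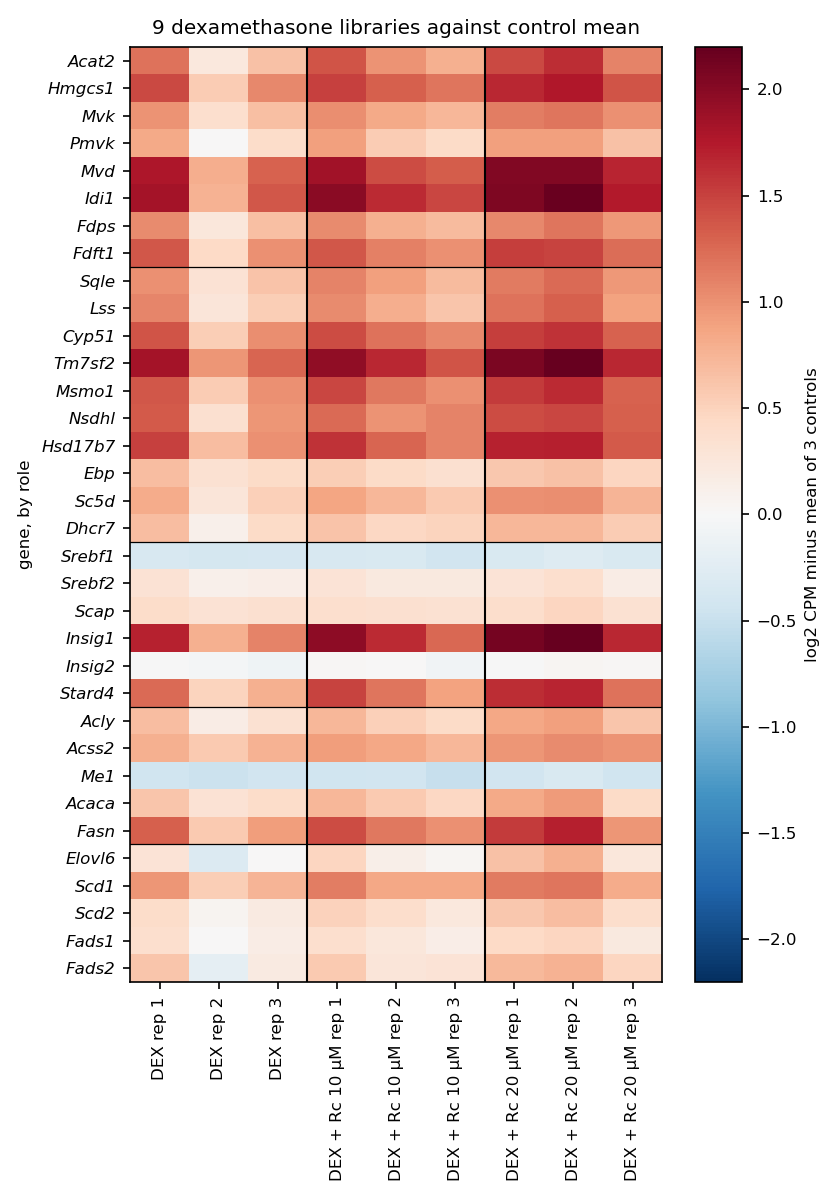
Log2 CPM minus the mean of 3 controls (colour) for each member (rows, by role) in the 9 dexamethasone libraries (columns). DEX replicate 2 is the palest column of the sterol enzymes and replicate 2 of DEX + Rc 20 µM the darkest, while Srebf1, Insig2, Scap and Me1 hardly vary along their rows.

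Other gene lists are given beside the spread. Fatty acid elongation and glycerolipid synthesis genes, a list without any of the 34, had a mean log2 CPM of 5.56, 5.37 and 5.48 in DEX, 5.6, 5.53 and 5.48 in DEX + Rc 10 µM and 5.64, 5.65 and 5.55 in DEX + Rc 20 µM. Genes that process or degrade the SREBP machinery were at 6.42, 6.37 and 6.39, at 6.46, 6.42 and 6.39 and at 6.48, 6.49 and 6.41. Both lists ordered the libraries of each group as the 34 genes did, over a narrower range. In DEX, sterol uptake, storage and efflux genes were at 4.47, 4.49 and 4.46, and isoprenoid branch genes at 4.75, 4.79 and 4.78. In DEX + Rc 10 µM these were 4.39, 4.45 and 4.49, and 4.78, 4.79 and 4.74. In DEX + Rc 20 µM they were 4.44, 4.45 and 4.45, and 4.79, 4.76 and 4.79. Neither of these lists followed the order of the 34 genes. The mean of 4 glucocorticoid targets was 6.39, 6.40 and 6.41 in DEX, 6.42, 6.47 and 6.44 in DEX + Rc 10 µM and 6.59, 6.54 and 6.36 in DEX + Rc 20 µM, where replicate 3 was lowest, as for the 34 genes. In DEX and DEX + Rc 10 µM replicate 1 was lowest for these targets but highest for the 34 genes. Dividing-cell markers were at 1.61, 2.32 and 1.85 in DEX, 1.51, 1.93 and 2.11 in DEX + Rc 10 µM and 1.27, 1.47 and 2.12 in DEX + Rc 20 µM. Within each of the 3 dexamethasone groups, the library with the lowest mean of the 34 genes had the highest mean of dividing-cell markers. Myotube markers were at 10.91, 10.97 and 11.01 in DEX, 10.89, 10.99 and 11 in DEX + Rc 10 µM and 10.94, 10.87 and 11.02 in DEX + Rc 20 µM. In each of these groups they were lowest in the library with the highest mean of the 34 genes. Mitochondrial counts were 1.82%, 1.68% and 1.78% and library totals 42.2M, 44.0M and 41.2M in the DEX replicates. The part of these in the spread was not tested.

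Genes that process or degrade the SREBP machinery went both ways with dexamethasone. Of 12 listed, 5 rose, 3 fell and 4 did not pass against control, with a median of 0.05. The shares of all tested genes to set beside these and the next 3 lists are the 20.6% that rose and the 23.2% that fell. Erlin2, which helps degrade sterol-regulated proteins at the endoplasmic reticulum, rose by 0.57 (adjusted p = 2.6e-07), and Fbxw7, the ubiquitin ligase that clears nuclear SREBPs, fell by 0.39 (adjusted p = 3.4e-06). Mbtps1, the first of the Golgi proteases, fell by 0.23 (adjusted p = 8e-05), and Lpin1, a phosphatidate phosphatase, rose by 0.60 (adjusted p = 0.00098); this pair was chosen after its values were seen. Lpin1 was at 50.8, 33.5 and 41.3 CPM in the DEX replicates, in the same order as the sterol enzymes.

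For sterol uptake, storage and efflux, 8 of 14 tested genes rose and 3 fell (median 0.23), with Cyp7b1 the listed gene without enough counts. Among those whose log2 CPM averaged 1 or more, the smallest adjusted p-values were those of Abca1 and Npc1. Abca1, which exports cholesterol from cells, rose by 1.80 (adjusted p = 3e-09) and Npc1, which exports it from lysosomes, by 0.83 (adjusted p = 3.8e-07). Abcg1, another exporter, fell by 0.90 and Ch25h, which makes an oxysterol, fell by 2.67; Nr1h3, the oxysterol receptor LXR alpha, rose by 1.31 (adjusted p = 3.9e-08). These 3 were chosen after their values were seen, and Ch25h and Nr1h3 had low counts, at most 2.56 and 2.68 CPM in a control or DEX library. Abca1 was at 18.3, 20.9 and 19.2 CPM in the DEX replicates, so that replicate 2 was its highest and not its lowest.

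The isoprenoid branch, which uses farnesyl diphosphate for other ends, had 2 of 11 genes higher and 2 lower (median 0.02), near the shares of all genes, with Fntb, a farnesyltransferase subunit, falling by 0.21 (adjusted p = 0.012) and Ggps1, which makes geranylgeranyl diphosphate, by 0.19 (adjusted p = 0.04). Of 19 tested genes of fatty acid elongation and glycerolipid synthesis, 10 rose and 2 fell (median 0.29), with Elovl3, Mlxipl and Thrsp not tested. Acsl1, which activates fatty acids, rose by 0.99 (adjusted p = 2.4e-10) and Agpat2, which acylates lysophosphatidate, by 0.47 (adjusted p = 1.7e-06). In the DEX replicates Acsl1 stayed at 105, 101 and 104 CPM. Of the 56 tested genes of these 4 lists, 0 passed by edgeR in any comparison of ginsenoside Rc with vehicle or any interaction. Against control, an unadjusted p under 0.05 was reached by 0 at 10 µM and by 4 at 20 µM (7.14% against 9.29% of all genes). Under dexamethasone 3 reached it at 10 µM (5.36% against 3.85%) and 12 at 20 µM (21.4% against 8.75%). In the interactions 1 did at 10 µM (1.79% against 2.12%) and 8 at 20 µM (14.3% against 5.29%). DESeq2 called 4 at 20 µM under dexamethasone (7.14% against 1.67% of all genes; Fbxw7 lower, Lpin1, Acacb and Acsl1 higher) and 0 in the others.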

How the data were processed

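Per the labels' protocols, 18 poly-A libraries were prepared with a directional kit and sequenced on an MGI instrument. Tools named in the submitters' processing notes are STAR 2.7.3a and RSEM 1.3.3, with FastQC 0.11.9 and Trim Galore 0.6.5, and the builds GRCm38 and mm10. Values in the authors' deposited table are expected counts, which RSEM estimates per gene, and 9.27% were not whole. Which annotation release and strand setting the counting used is not given in the sources used here. Exons of 11 members overlap those of other annotated genes. These are Fdps with Gm43738, Fdft1 with Ctsb, Tm7sf2 with Vps51, Cyp51 with Akap9, Acss2 with Gss among others, and Srebf1 with Rai1 among others. The remaining ones are Scap with 5830462I19Rik, Lss with 4930483K19Rik, Me1 with A330041J22Rik, Elovl6 with Gm35986 and Scd2 with Mir5114. These members and the paralogs Scd1 and Scd2 are less certain than their counts imply.

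Expected counts were rounded, filtered with filterByExpr (15436 of 26796 genes with any count kept), scaled by TMM and fitted with 1 mean per group over all 18 libraries in edgeR 4.0.16 (R 4.3.3; robust quasi-likelihood). For each of 9 comparisons glmQLFTest p-values were adjusted by Benjamini-Hochberg over all genes at 0.05. CPM are TMM-scaled, RPKM are CPM per kilobase of annotated exon, and log2 CPM use a prior count of 2. Standard errors are the log2 change over the square root of F, and intervals are at 95%. Symbols and coordinates come from GENCODE (GRCm38), which named 48349 of 48795 identifiers, and promoters from RefSeq (GRCm38.p6). The code was tested on simulated data.

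The members, role classes, related lists, markers and motifs were chosen with earlier results of these data known, and the lists were written from general knowledge. Values per library are given for the 2 members of each role with the largest change with dexamethasone, for members that fell or did not pass, and otherwise for the member with the smallest p; Hmgcs1, Insig1 beyond its comparison and genes said to be chosen after their values were seen are additions. Of each related list the 2 genes with the smallest adjusted p with dexamethasone among those whose log2 CPM averaged 1 or more are named. As alternatives, DESeq2 1.42.0, a replicate block, median-ratio size factors, scaling without composition correction, all genes without the filter, a fit of the compared groups alone and fits without each library were run; leaving out replicate 2 of the 20 µM group elsewhere was added after seeing the data.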

Additional observations from a re-analysis of the deposited data

How the results depend on the processing

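No median change or count of members reversed its direction under any alternative tried, except that the median of 20 µM ginsenoside Rc against control, 0.01, was -0.01 without composition scaling, with 0 members passing either way. For 20 µM under dexamethasone, 0 members passed in the fit reported, 1 without the low-count filter, 7 by DESeq2 and 1 without replicate 2 of the 20 µM group (added after seeing the data). Of all genes, 18, 34, 88 and 119 were called higher in these fits, in the same order. The cause was not tested.

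Leaving out 1 library at a time gave 24 (without DEX replicate 1) to 29 (without DEX replicate 2) members higher with dexamethasone, with a median of 0.46 to 0.83. With dexamethasone at 10 µM it gave 28 to 29 and a median of 0.76 to 0.93, and at 20 µM 29 to 31 and 0.98 to 1.07. Over all genes, those higher ran from 2724 to 2960 with vehicle, from 2824 to 2995 at 10 µM and from 3102 to 3965 at 20 µM. With all libraries these were 3177, 3264 and 3631. For 20 µM under dexamethasone it gave 0 to 17 members and a median of 0.25 to 0.63, and for 10 µM 0 members and 0.04 to 0.38. The medians of 10 µM and 20 µM against control ran from -0.01 to 0.02 and from 0 to 0.02. Those of the interactions ran from 0.04 to 0.43 at 10 µM and from 0.25 to 0.62 at 20 µM. The highest minus the lowest mean log2 CPM of the members over the 9 dexamethasone libraries was 0.83, and 0.54 without DEX replicate 2.

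No pairing of libraries by replicate number was seen. Over 45 same-number pairs the correlation of deviations ran from -0.2 to 0.15, and 5 of 18 libraries correlated best with their own number. With 3 libraries a group, these correlations cannot tell whether libraries of the same number were handled together. With the replicate block 28 members rose and 2 fell with dexamethasone (median 0.67), 29 and 30 rose at 10 and 20 µM, and 0 passed in the other comparisons. Of all 15436 genes, 3134 rose and 3518 fell with dexamethasone in that fit, and 3221 and 3581 rose at 10 and 20 µM. Of all called genes, 35% were higher with dexamethasone without composition scaling (2368 higher, 4393 lower) and 47% with it (3177 and 3578). At 10 µM these were 2449 and 4374, against 3264 and 3556, and for 10 µM under dexamethasone 0 and 4, against 1 and 3. With 3 libraries a group and members that vary together between dexamethasone libraries, differences under dexamethasone are less precise than those without it. The standard errors do not show this, because the fit gives each gene 1 spread over all groups.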

Other observations

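Of the 19 tested genes of fatty acid elongation and glycerolipid synthesis, 0 passed by edgeR at 20 µM ginsenoside Rc under dexamethasone. The mean of this list ordered the libraries of each dexamethasone group as the 34 genes did. An unadjusted p under 0.05 was reached by 7 (Acacb, Elovl5, Slc25a1, Acsl1, Acsl3, Acsl4 and Mid1ip1), against 8.75% of all genes. DESeq2 called Acsl1 and Acacb, against 1.67% of all genes. These 2 are described because of their values; others of the list were near 0, such as Dgat1 and Dgat2 (both -0.05), Gpam (-0.04) and Agpat2 (0.05). Acsl1, which activates long-chain fatty acids, was at 105, 101 and 104 CPM with dexamethasone and at 124, 131 and 118 CPM with 20 µM ginsenoside Rc added. Its groups did not overlap, with a log2 change of 0.27 ± 0.06 (adjusted p = 0.056). Acacb, the acetyl-CoA carboxylase that restrains mitochondrial fatty acid import, was at 6.94, 7.02 and 7.46 CPM with dexamethasone, at 9.82, 9.18 and 8.93 CPM with 10 µM added and at 9.08, 10.7 and 8.09 CPM with 20 µM added. Both combined groups lay above dexamethasone alone, with changes of 0.38 ± 0.10 at each dose (adjusted p = 0.58 and 0.12), and these comparisons share the 3 DEX libraries. In the DEX group Acacb was lowest in replicate 1, where the mean of the 34 genes was highest, and in both combined groups its replicates were in the same order as that mean.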
